A study of Homo sapiens with 6 samples.

Results

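RNA levels of 34 genes, listed by name as known targets of the transcription factor p53 in the cellular stress response, were compared in a leukaemia cell line given the compound 22d or its vehicle. The members were the rows of the deposited table whose gene symbol was one of the 34 names. All 34 were found among the 26364 genes of the table, and 33 passed the filter on low values, as 33 of the 13297 genes that were tested. KITLG was the member under the filter.

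The cells were MV4-11, an established line of human acute myeloid leukaemia that carries an internal tandem duplication in the receptor tyrosine kinase gene FLT3. In 3 libraries the cells had been given the vehicle DMSO, and in 3 libraries 22d at 10 nM, known as an inhibitor of the deacetylase HDAC8; RNA was taken after 18 hours. The dose is the one in the labels. It may be low for an inhibitor of this enzyme, and no value here bears on it. The groups share 1 cell line and 1 time point, and the question of the series is how such treatment bears on p53 in leukaemia with an activated FLT3. No label ties the libraries of a group to separate cultures; p-values therefore speak only of the spread among these 6 samples, and that spread may be technical.

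As background, p53 is kept low in unstressed cells by the ubiquitin ligase MDM2, and damage or other stress stabilises and activates it. Active p53 binds as a tetramer to sites made of a pair of short motifs, in promoters and in introns, and raises transcription of genes for cell cycle arrest, DNA repair, antioxidant metabolism, autophagy and cell death. Lysine acetylation of p53 affects its activity, and HDAC8 is among the deacetylases described as acting on it in leukaemia.

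The sequences shown here are the members' promoter stretches in which letters like those of a p53 site were found, since the members share the name of p53 target while the values below differ between them. They come from RefSeq on GRCh38.p14, in windows of 300 bases reaching from 250 before to 50 after the transcription start. Of the 34 members, 26 had a window; CMBL, RRM2B, ASCC3, GADD45A, TP53INP1, PHLDA3, TRIM22 and FBXO22 had none. The p53 response element motif of 10 bases was searched as 2 copies side by side with a gap of 0 or 1 base. The central C and G of each copy had to be exact and at most 2 mismatches were allowed over the other 16 positions. The motif reads the same on both strands, so a single pass covers both, and no other motif was searched. Capitals mark the matching site, each sequence is written 5′ to 3′ on the strand of its gene, and positions are counted from the start base as 1.
DDB2: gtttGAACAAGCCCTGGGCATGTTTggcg
AEN: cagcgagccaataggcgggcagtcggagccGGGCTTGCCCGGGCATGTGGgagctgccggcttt
FDXR: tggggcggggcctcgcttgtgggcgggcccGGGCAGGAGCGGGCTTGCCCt
GDF15: gcacAGCCATGCCCGGGCAAGAACtc
RPS27L: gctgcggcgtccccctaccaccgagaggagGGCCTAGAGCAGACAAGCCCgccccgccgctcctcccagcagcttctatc
The DDB2 stretch (plus strand, chr11:47214975-47215003) held a site with 0 mismatches and a gap of 1 base, whose first base lay 6 bases into the transcript. The AEN stretch (plus strand, chr15:88621276-88621339) held a site with 2 mismatches that began at position -34. With the limit of 2 mismatches, 2 of 26 members held a site (7.69%), against 184 of 27305 genes with a window (0.674%). The other 3 stretches had 3 mismatches each: FDXR (minus strand, chr17:74872995-74873045, position -21), GDF15 (plus strand, chr19:18386182-18386207, position 29) and RPS27L (minus strand, chr15:63157497-63157576, position -69). With 3 mismatches allowed, 5 of 26 members (19.2%) and 2.91% of all genes with a window held one. A match is a description of letters, and a window without one says only that these letters are not in it. Sites in introns and farther upstream lay outside the search.

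The 6 libraries held between 19995430 and 23749257 reads in genes, and 1 read was worth 0.839 to 1.14 normalized counts, the unit of the values that follow. Replicates of a group differed from each other by more than sampling noise, with a chi-square per degree of freedom of 10.7 to 26.9, and none was a copy of another. Genes with a read numbered 16268 to 16439 with DMSO and 16807, 17055 and 19285 with 22d, the highest in 22d replicate 3. The line matched its label, with CD33, SPI1, LYZ, CD4 and FLT3 present in all libraries, and of 11 tested myeloid markers 4 rose and 2 fell, MPO and LYZ by -2.59 and -1.46 on the log2 scale, while CD14 reached at most 10.3 normalized counts. The summed level of the 12 myeloid markers was 75825 to 94925 normalized counts with DMSO and 53245 to 63717 with 22d, of which LYZ alone had a mean of 44816 with DMSO and 16624 with 22d. Of 17 markers of other cell types, 5 were tested, of which 3 rose and 0 fell. The shares over all tested genes were 28.5% rising and 29.6% falling. The epithelial sum was 140.4 to 165 with DMSO and 297 to 389 with 22d, nearly all KRT8, with EPCAM at most 4.20, in 22d replicate 3. The endothelial sum was 223 to 316 with DMSO and 507 to 595 with 22d, nearly all PECAM1, with CDH5 at most 2.28. PECAM1 and VWF, the 2 tested endothelial markers, rose by 1.10 and 1.36 on the log2 scale. VWF had means of 6.79 with DMSO and 18.0 with 22d, so it passed the filter on low values only through 22d. The T cell, erythroid and fibroblast sums reached at most 2.52, 1.68 and 15.9, in each case in 22d replicate 3. In that library COL1A1 had 18 reads and CD3E 2, and CD3G, HBB and DCN had 1 each. CD3D, MS4A1 and COL1A2 were at 0 in all 6 libraries. The part of these markers in the results below was not tested. In such bulk RNA, fewer cells of a kind and less RNA per cell cannot be told apart.

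Most of the tested p53 targets rose with 22d, but not all. Of the 33 tested members, 19 rose (57.6%), 2 fell (6.06%) and 12 did not pass the test, which was limma on log2(normalized count + 1), called where the p adjusted by Benjamini and Hochberg over the 13297 genes was under 0.05. Over all tested genes, 28.5% rose and 29.6% fell. A rise of at least 2-fold was seen for 11 members (33.3%), against 9.9% of all genes. In 20 members (60.6%) every 22d library lay above every DMSO library, against 32.1% of all genes, and in 2 members (6.06%) every one lay below, against 33.3%. GDF15, which passed the filter on low values only through its 22d libraries, is counted in the 19, the 11 and the 20. The median log2 fold change over the tested members was 0.75, against 0.01 over all genes, a value that the scaling holds near 0. Of the 33 values of members, 25 were above 0. Single members ranged from -1.03 for TNFAIP8 to 2.97 for TP53INP1. The counts by role below rest on 4 to 8 members each and stand beside these shares over all genes.

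**Figure D1:**
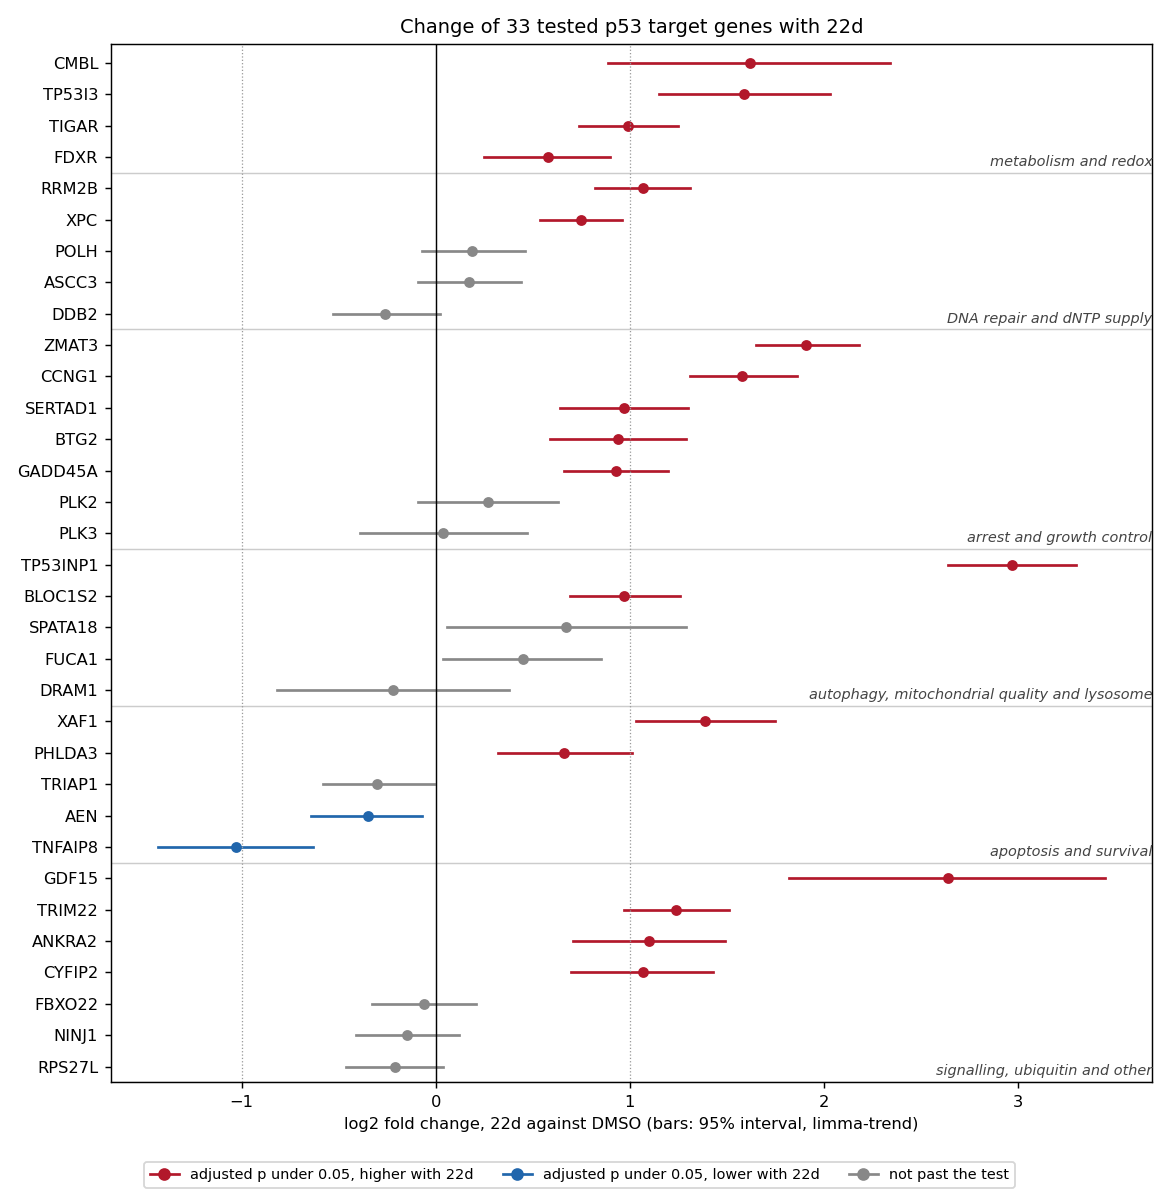
Change of the 33 tested p53 target genes, as log2 fold change of 22d against DMSO on the horizontal axis, with genes grouped by role. Points are limma estimates from 3 libraries a group, bars are 95% intervals not adjusted for the number of genes, and colour marks the call; dotted lines mark a 2-fold change, and the metabolism genes all lie right of 0 while apoptosis and survival genes lie on both sides.

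The metabolic and redox targets rose together. All 4 members passed the test, with a median log2 fold change of 1.29, and in each of them every 22d library lay above every DMSO library. TIGAR, which lowers glycolytic flux by acting as a sugar bisphosphatase, was at 426, 469 and 422 normalized counts with DMSO and at 938, 872 and 815 with 22d. Its mean went from 439 ± 25.8 (SD, n = 3) to 875 ± 61.7 (SD, n = 3), or 0.99 in log2 (limma SE 0.12, adjusted p = 1.4e-05). TIGAR was steady within each group, with a wide gap between the groups. TP53I3, an oxidoreductase of the quinone reductase kind tied to oxidative stress, read 71.7, 114 and 76.8 with DMSO and 219, 304 and 262 with 22d, a log2 fold change of 1.59 (SE 0.20, adjusted p = 2.7e-05). It shares 80 exonic bases with FAM228B on the opposite strand, which rose by 1.42 on the log2 scale, and with no strand setting stated the reads there cannot be told apart.

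CMBL, a hydrolase, had the largest standard error of the 4 metabolic genes. Its DMSO libraries gave 27.3, 18.6 and 31.8 normalized counts and its 22d libraries 45.9, 97.7 and 112, so that 22d replicate 1 lay far below the other two but above all DMSO libraries. The log2 fold change was 1.62 (SE 0.34, adjusted p = 0.0011). FDXR, the mitochondrial reductase that passes electrons from NADPH to ferredoxin, showed the same order of the 22d libraries. It read 1725, 2090.2 and 1682 with DMSO and 2112, 2968 and 3224 with 22d, where replicate 1 lay just above the highest DMSO library. FDXR had the smallest rise of the 4, with a log2 fold change of 0.58 (SE 0.15, adjusted p = 0.0051).

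The DNA repair and nucleotide supply genes were split. Of 5 members, XPC and RRM2B rose and DDB2, POLH and ASCC3 did not pass the test. The median log2 fold change was 0.19, and 28.5% of all tested genes rose. RRM2B, the p53-induced small subunit of ribonucleotide reductase that supplies deoxynucleotides outside S phase, was at 1317, 1158 and 1451 with DMSO and at 2576, 2892 and 2741 with 22d. The lowest 22d library was well above the highest DMSO library, and the log2 fold change was 1.07 (SE 0.11, adjusted p = 5.3e-06). XPC, which finds helix distortions at the start of global genome nucleotide excision repair, had the tightest 22d values of this group, 3156, 3128 and 3097, against 1957, 1858 and 1784 with DMSO. Its log2 fold change was 0.75 (SE 0.10, adjusted p = 3e-05). XPC overlaps LSM3 on the opposite strand by 318 exonic bases, and LSM3 went the other way, by -1.05 on the log2 scale. On the same opposite strand, XPC also shares 1140 exonic bases with AC093495.1 and 413 with AC090004.1, which had no values here.

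DDB2 works beside XPC as the damage sensor for ultraviolet lesions, yet its values did not follow those of XPC. DDB2 gave 1491, 1306 and 1081 normalized counts in the DMSO libraries and 1026, 1119 and 1075 with 22d, and the groups overlapped. Its log2 fold change was -0.26 (adjusted p = 0.099), with a 95% interval from 0.693-fold to 1.01-fold. DDB2 is the only member whose window held a p53 site with 0 mismatches. Without DMSO replicate 3 its value was -0.38 and passed as lower (adjusted p = 0.021), while without DMSO replicate 1 it was -0.15 (adjusted p = 0.40) and with library totals -0.04. POLH, the polymerase that copies past ultraviolet lesions, had a log2 fold change of 0.19 (adjusted p = 0.19) and an interval from 0.953-fold to 1.38-fold. ASCC3, a helicase of alkylation repair, had 0.17 (adjusted p = 0.24) and an interval from 0.94-fold to 1.36-fold. Both intervals exclude a doubling. Scaled by library totals, POLH (0.42) and ASCC3 (0.39) passed the test.

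Arrest and growth control held 5 rising genes of 7, with no fall, and a median log2 fold change of 0.94. The largest was ZMAT3, a zinc finger RNA-binding protein on chromosome 3 (179017223 to 179072279, GRCh38). It was at 381, 427 and 497 normalized counts with DMSO and at 1636, 1635 and 1624 with 22d. The 22d libraries were nearly equal, at a mean of 1632 ± 6.72 (SD, n = 3) against 435 ± 58.3 (SD, n = 3), for a log2 fold change of 1.91 (SE 0.12, adjusted p = 1e-07). CCNG1 encodes cyclin G1, which takes part in feedback on p53 through MDM2, and is on chromosome 5 (163437569 to 163446151). It read 1195, 1074 and 1361 with DMSO and 3749, 4068 and 3095 with 22d, a log2 fold change of 1.58 (SE 0.13, adjusted p = 5.8e-07). Each 22d library held more than double the highest DMSO value for both genes.

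SERTAD1, BTG2 and GADD45A rose by 0.93 to 0.97 on the log2 scale. SERTAD1, a regulator of CDK4 and of E2F transcription, read 226, 302 and 261 with DMSO and 602, 481 and 468 with 22d (log2 fold change 0.97, SE 0.15, adjusted p = 0.00013). BTG2, an antiproliferative partner of the CCR4-NOT deadenylase, read 974, 1093 and 685 with DMSO and 1574, 2014 and 1634 with 22d (0.94, SE 0.16, adjusted p = 0.00027). GADD45A, a stress sensor that acts at the G2 checkpoint, read 373, 346 and 317 with DMSO and 621, 661 and 698 with 22d (0.93, SE 0.12, adjusted p = 3.7e-05). In none of the 3 did the groups overlap.

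The polo-like kinases PLK2 and PLK3 did not pass the test. PLK2, a stress-responsive kinase of centriole duplication, was at 240.1, 229 and 186 with DMSO and at 228, 315 and 252 with 22d, with a log2 fold change of 0.27 (adjusted p = 0.18). Its interval ran from 0.94-fold to 1.55-fold, and with scaling by library totals it passed at 0.49, against 0.14 without 22d replicate 2. PLK3, a kinase that can phosphorylate p53, depended on 1 library. It read 471, 501 and 428 with DMSO and 324, 603 and 563 with 22d, so that 22d replicate 1 was the lowest and the other two the highest of all 6 values. The log2 fold change of PLK3 was 0.04 (adjusted p = 0.87), and without 22d replicate 1 it was 0.32 (adjusted p = 0.044). With another library left out it lay between -0.12 and 0.09 and did not pass.

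The largest rise of all members belonged to the autophagy group, in which only TP53INP1 and BLOC1S2 passed the test. TP53INP1, which promotes p53 phosphorylation in the nucleus and autophagy in the cytoplasm, is on chromosome 8 (94925972 to 94949411, GRCh38). It was at 138, 168 and 195 normalized counts with DMSO and at 1489.8, 1267 and 1170.2 with 22d. The mean went from 167 ± 28.8 (SD, n = 3) to 1309 ± 164 (SD, n = 3), a 7.85-fold ratio of means and a log2 fold change of 2.97 (SE 0.15, adjusted p = 3e-08). By size of rise it ranked 62 of the 13297 genes tested. BLOC1S2, a subunit of complexes that place lysosomes in the cell, read 371, 483 and 468 with DMSO and 896, 874 and 814 with 22d, a log2 fold change of 0.97 (SE 0.13, adjusted p = 3.9e-05).

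FUCA1, SPATA18 and DRAM1 of the same group gave values that did not pass. FUCA1, the lysosomal fucosidase, was at 644, 875 and 895 with DMSO and at 791, 1363 and 1185 with 22d, with a log2 fold change of 0.45 (adjusted p = 0.055). It lay closest to the threshold: it passed in 6 of 15 alternatives, and without 22d replicate 1 the value was 0.67 (adjusted p = 0.0017). It was 0.28 without 22d replicate 2 and 0.29 without DMSO replicate 1 (adjusted p = 0.23 for each). The authors' deposited table gave FUCA1 a log2 fold change of 0.46 with an adjusted p of 0.028, and of the tested members its call was the only one that differed there. SPATA18, known for the removal of damaged mitochondrial proteins, read 47.8, 22.8 and 32.9 with DMSO and 53.8, 57.5 and 48.7 with 22d. Its groups did not overlap, but the gap was narrow, and its log2 fold change of 0.67 had an adjusted p of 0.059. Without DMSO replicate 1 SPATA18 stood at 0.93 (adjusted p = 0.017), and without DMSO replicate 2 (adjusted p = 0.23) or with quantile normalization (adjusted p = 0.25) at 0.41. DRAM1, a lysosomal membrane protein of autophagy, read 196, 162 and 99.8 with DMSO and 95.8, 189.8 and 109 with 22d, with a log2 fold change of -0.22 (adjusted p = 0.51). Its 95% interval ran from 0.566-fold to 1.3-fold, and the groups lay across each other.

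**Figure D2:**
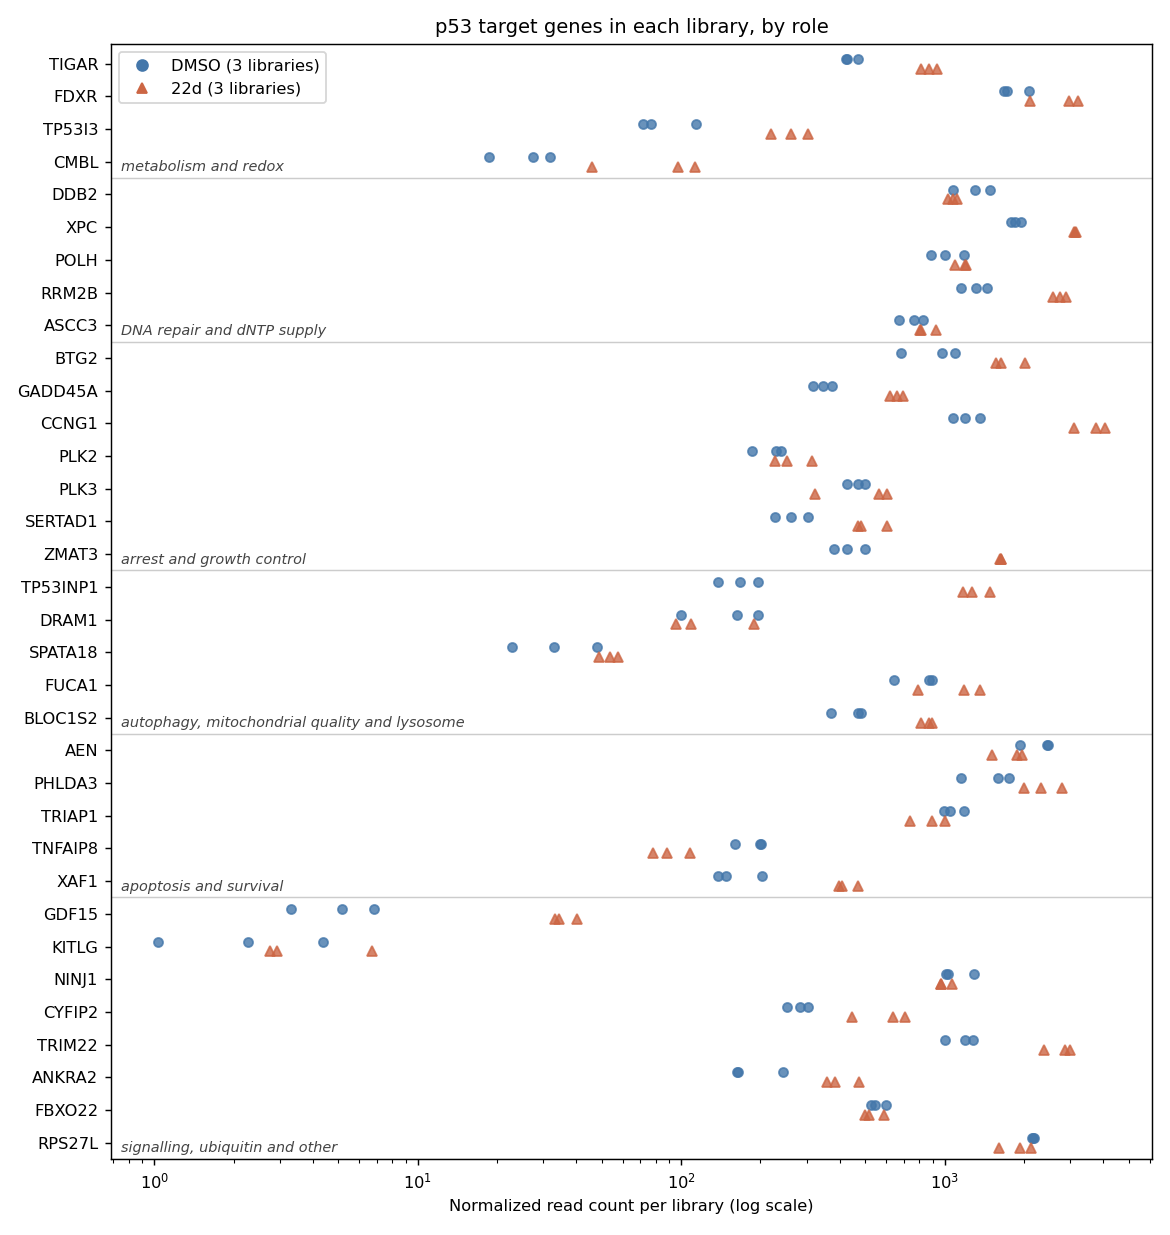
Normalized read count of each of the 34 members in each library, on a log axis, with members grouped by role. Circles are the 3 DMSO libraries and triangles the 3 libraries with 22d; TP53INP1 and GDF15 have the widest gaps between groups, while in TNFAIP8 the triangles lie below the circles.

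Genes of apoptosis and survival moved in both directions. XAF1 and PHLDA3 rose, TNFAIP8 and AEN fell, TRIAP1 did not pass, and the median log2 fold change was -0.30. These counts rest on 5 genes, and 28.5% of all tested genes rose and 29.6% fell. XAF1, which opposes the caspase inhibitor XIAP and is also known as an interferon-induced gene, was at 148, 138 and 203 with DMSO and at 397, 468 and 408 with 22d. All 22d values were well above all DMSO values, with a log2 fold change of 1.39 (SE 0.17, adjusted p = 1.5e-05). PHLDA3, a competitor of AKT for membrane lipids, read 1594, 1759 and 1153 with DMSO and 1994, 2319.9 and 2784 with 22d, a log2 fold change of 0.66 (SE 0.16, adjusted p = 0.0031).

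TNFAIP8, described as a negative regulator of apoptosis, was the member with the largest fall. It read 160.5, 201 and 199.6 with DMSO and 88.0, 108 and 78.1 with 22d, and every 22d library was below every DMSO library. The log2 fold change was -1.03 (SE 0.18, adjusted p = 0.00037), from 187 ± 22.9 (SD, n = 3) to 91.2 ± 15.1 (SD, n = 3). AEN, a nuclease that takes part in p53-dependent apoptosis, was the other member called lower, with 2444, 2472 and 1936 in DMSO and 1507, 1886 and 1972 in 22d. Its groups overlapped, since DMSO replicate 3 lay below 22d replicate 3. The log2 fold change of AEN was -0.35 (SE 0.13, adjusted p = 0.035), and leaving out DMSO replicate 1 (-0.30, adjusted p = 0.13), DMSO replicate 2 (-0.29, adjusted p = 0.12) or 22d replicate 1 (-0.24, adjusted p = 0.12) ended the call. It was lost too with quantile normalization (-0.14) and with scaling by library totals (-0.13). TRIAP1, a small survival protein that acts in mitochondrial lipid transfer, read 1189, 1053 and 993 with DMSO and 741, 1006 and 899 with 22d, with a log2 fold change of -0.30 (adjusted p = 0.07). Without 22d replicate 2 it was -0.40 and passed (adjusted p = 0.035), while without 22d replicate 1 it was -0.18 (adjusted p = 0.22) and with library totals -0.08.

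The last group holds secreted factors, ubiquitin ligases and genes of other roles, of which 4 of 7 tested members rose, none fell, and the median log2 fold change was 1.07. GDF15, a secreted stress cytokine of the TGF-beta family, was low throughout: its counts rested on 6, 5 and 3 reads with DMSO and on 34, 44 and 41 with 22d. In normalized counts it went from 6.83, 5.17 and 3.29 to 33.2, 40.2 and 34.4, a 7.05-fold ratio of means. Its log2 fold change was 2.64 (SE 0.38, adjusted p = 6.4e-05), which ranked 100 of 13297 by size of rise, while the authors' deposited table gave 2.26. The value of GDF15 thus rests on far fewer reads than that of TP53INP1. With means of 5.10 with DMSO and 35.9 with 22d, GDF15 passed the filter on a mean of 10 only through its 22d libraries. A gene that enters in this way is bound to lean toward a rise, so its p-value and rank carry little weight. KITLG, the ligand of the receptor KIT, had 2, 1 and 4 reads with DMSO and 3, 3 and 8 with 22d, and was not tested.

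TRIM22, an interferon- and p53-responsive ubiquitin ligase, had the largest rise of this group after GDF15. It read 1277, 1001 and 1191 with DMSO and 2854, 2981 and 2382 with 22d, a log2 fold change of 1.24 (SE 0.13, adjusted p = 3.6e-06). ANKRA2, an ankyrin repeat protein that binds class IIa histone deacetylases, read 165, 162 and 244 with DMSO and 472, 382 and 359 with 22d (log2 fold change 1.10, SE 0.18, adjusted p = 0.00018). Its overlapping neighbour UTP15 on the opposite strand, with 244 shared exonic bases, fell by 0.52 on the log2 scale. CYFIP2, a part of the WAVE complex that drives actin branching, read 282, 303 and 252 with DMSO and 444, 706 and 638 with 22d (1.07, SE 0.17, adjusted p = 0.00014). The groups did not overlap in these 3 genes, and in CYFIP2 22d replicate 1 again lay lowest.

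NINJ1, FBXO22 and RPS27L did not pass the test. NINJ1, which ruptures the plasma membrane in lytic cell death, had a log2 fold change of -0.15 (adjusted p = 0.32, 0.753-fold to 1.09-fold). FBXO22, the substrate-binding part of a ubiquitin ligase for KDM4 demethylases and p53, had -0.06 (adjusted p = 0.70, 0.796-fold to 1.16-fold). RPS27L, a ribosomal protein paralog of RPS27, read 2193, 2153 and 2167 with DMSO and 1609, 2136 and 1932 with 22d. Every 22d library of RPS27L was below every DMSO library, by a narrow margin for replicate 2, and its log2 fold change was -0.21 (adjusted p = 0.14, 0.727-fold to 1.03-fold). Reads that its close paralog could share make its level uncertain. With scaling by library totals the values of NINJ1, FBXO22 and RPS27L changed sign, to 0.08, 0.16 and 0.01.

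The shift of the members was seen in each of the 3 libraries with 22d. The median of the members' log2 values less the DMSO mean was 0.69 in 22d replicate 1, 0.78 in replicate 2 and 0.84 in replicate 3. Over all tested genes the same medians in these libraries lay within 0.01 of 0, where the scaling by size factors holds them. With library totals the median log2 fold change was 0.97 for the members and 0.22 for all genes. By order, however, the libraries differed: 22d replicate 1 was the lowest of its group in 20 of 33 members and replicate 2 the highest in 20 of 33. Removing 22d replicate 1 changed the calls of FUCA1, PLK3 and AEN, as given above. The call of AEN also ended without DMSO replicate 1 or without DMSO replicate 2.

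**Figure D3:**
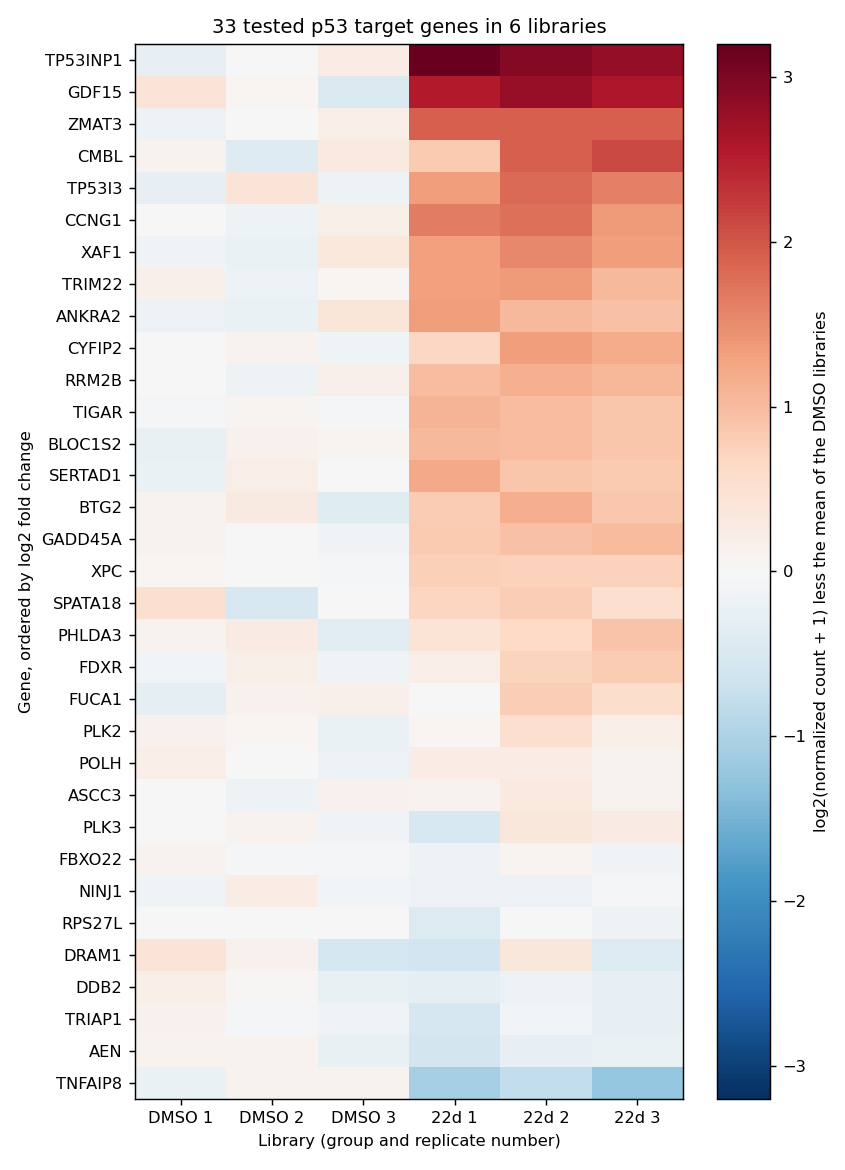
The 33 tested members in the 6 libraries, as log2(normalized count + 1) less the mean of the DMSO libraries, with genes ordered by log2 fold change from top to bottom and colour giving the difference in log2 units. The DMSO columns have a mean of 0 for each gene by construction, with single values from -0.554 (DRAM1) to 0.521 (SPATA18). The 3 columns of 22d run from 2.97 at TP53INP1 to -1.03 at TNFAIP8 by group difference, with single values up to 3.165 and down to -1.241.

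Among the 5 members shown above with promoter letters like a p53 site, the directions were mixed. FDXR and GDF15 rose, AEN fell, and DDB2 and RPS27L did not pass the test. The windows of ZMAT3, CCNG1 and TNFAIP8 held no match within 3 mismatches.

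Beside the members stand the genes that regulate p53 and other well-known p53 targets, which give the setting of these values. MDM2, the ubiquitin ligase that is both a target and an inhibitor of p53, rose from 1801, 1807 and 1879 to 4149, 5303 and 4612 (1.35, adjusted p = 6.5e-07). Every 22d library of MDM2 was above every DMSO library. Its relative MDM4 had a log2 fold change of 0.29 (adjusted p = 0.037), a call lost without DMSO replicate 2, DMSO replicate 3 or 22d replicate 2, and PPM1D, the phosphatase that switches p53 off, had 0.19 (adjusted p = 0.24). HDAC8, the gene of the enzyme that 22d is known to inhibit, was at 315, 291 and 302 with DMSO and at 296, 348 and 301 with 22d (0.05, adjusted p = 0.74).

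Of 20 regulators of p53, all tested, 6 rose, 5 fell and 9 did not pass, with a median of 0.06, beside the 28.5% rising and 29.6% falling over all genes. ATM, the kinase that signals double-strand breaks, rose by 1.08 (adjusted p = 6.5e-06). The replication checkpoint kinase CHEK1 had -2.03 (adjusted p = 1.8e-07), and the p53 relative TP73 had -2.12 (adjusted p = 3.6e-07). Of 21 other p53 targets, 18 were tested, of which 9 rose, 5 fell and 4 did not pass, with a median of 0.46. CDKN1A, the p21 inhibitor of cyclin-dependent kinases, went from 2663, 2375 and 1673 to 10340.0, 11244 and 10568 (2.29, adjusted p = 1.1e-07), and the death receptor gene FAS rose by 1.66 (adjusted p = 0.00017). EI24, a membrane protein of the endoplasmic reticulum, had -1.07 (adjusted p = 6.4e-06). THBS1, the secreted thrombospondin, had -2.49 (adjusted p = 0.0074) from overlapping and uneven libraries, and with DESeq2 on the recovered reads its call was lost (-2.22, adjusted p = 0.066). PERP and EPHA2 were under the filter and IGFBP3 was at 0.

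**Figure D4:**
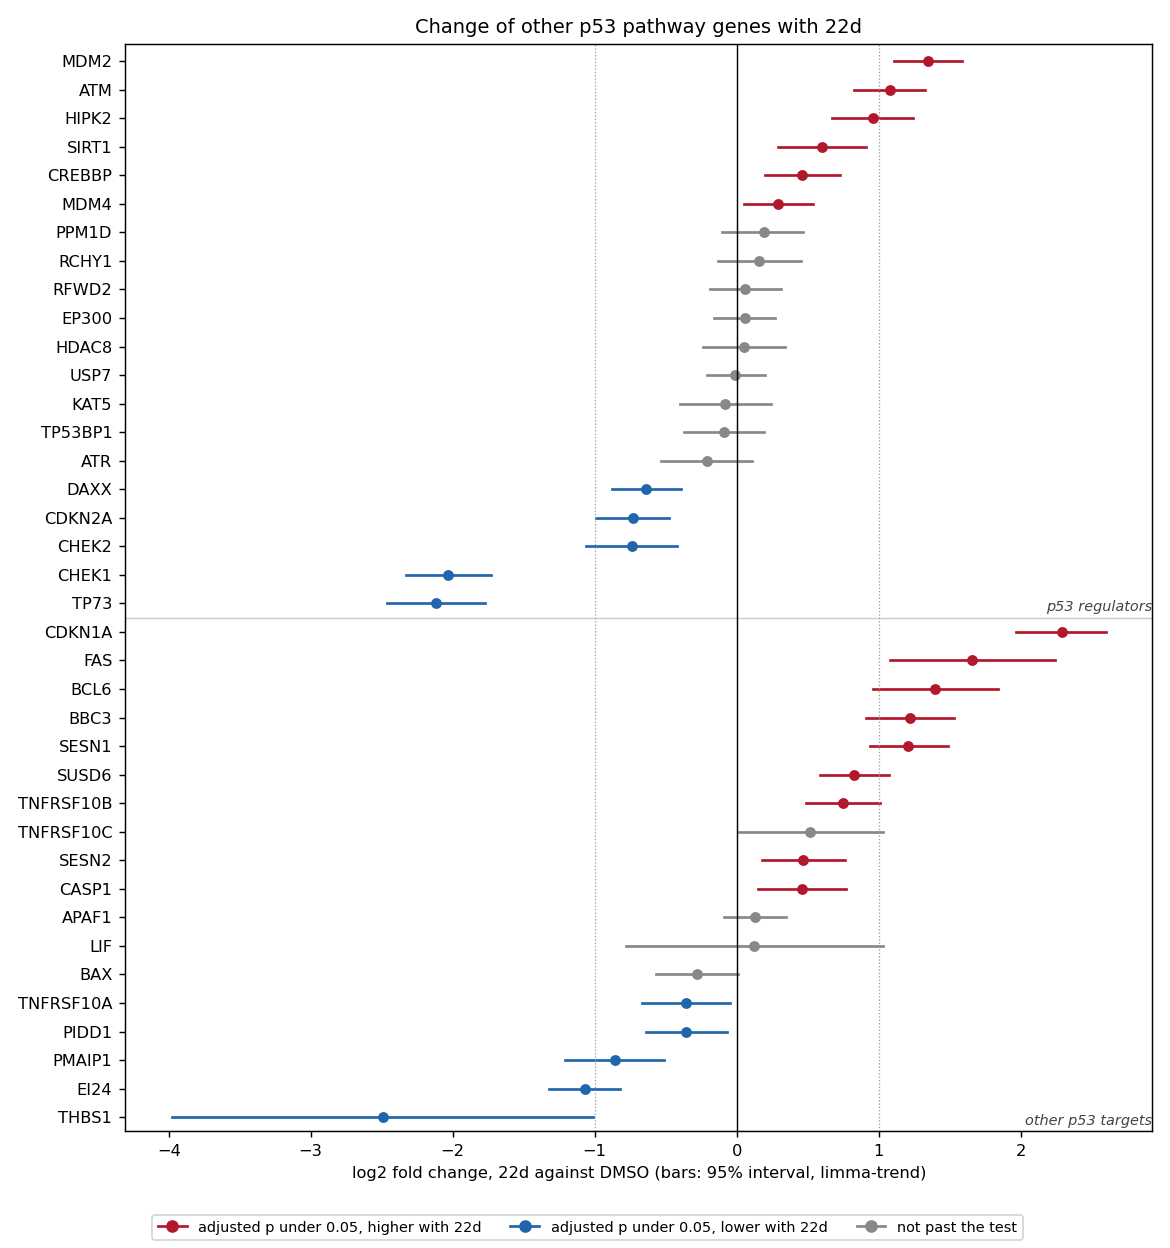
Change of the other p53 pathway genes, as log2 fold change of 22d against DMSO on the horizontal axis, in 20 regulators and 18 tested targets. Points are limma estimates from 3 libraries a group with 95% intervals not adjusted for the number of genes, and colour marks the call; CDKN1A lies at 2.29, TP73 at -2.12 and HDAC8 at 0.05.

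The calls of the members were compared over 15 alternative settings. Of the 21 members called, 20 kept their direction and their call in every setting that tested them, the exception being AEN; GDF15 was not tested with the filter on a mean of 50. Of the 12 not called, DRAM1 was the only one that kept direction and side of the threshold in all 15. The scaling mattered most: with library totals in place of the deposited size factors, 65.6% of all calls were rises instead of 49.0%, and the median log2 fold change of all genes was 0.22. Under that scaling 24 members rose and 1 fell, and their median of 0.97 stands against that 0.22. In the authors' deposited table, 20 members were higher and 2 lower at an adjusted p under 0.05.

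**Figure D5:**
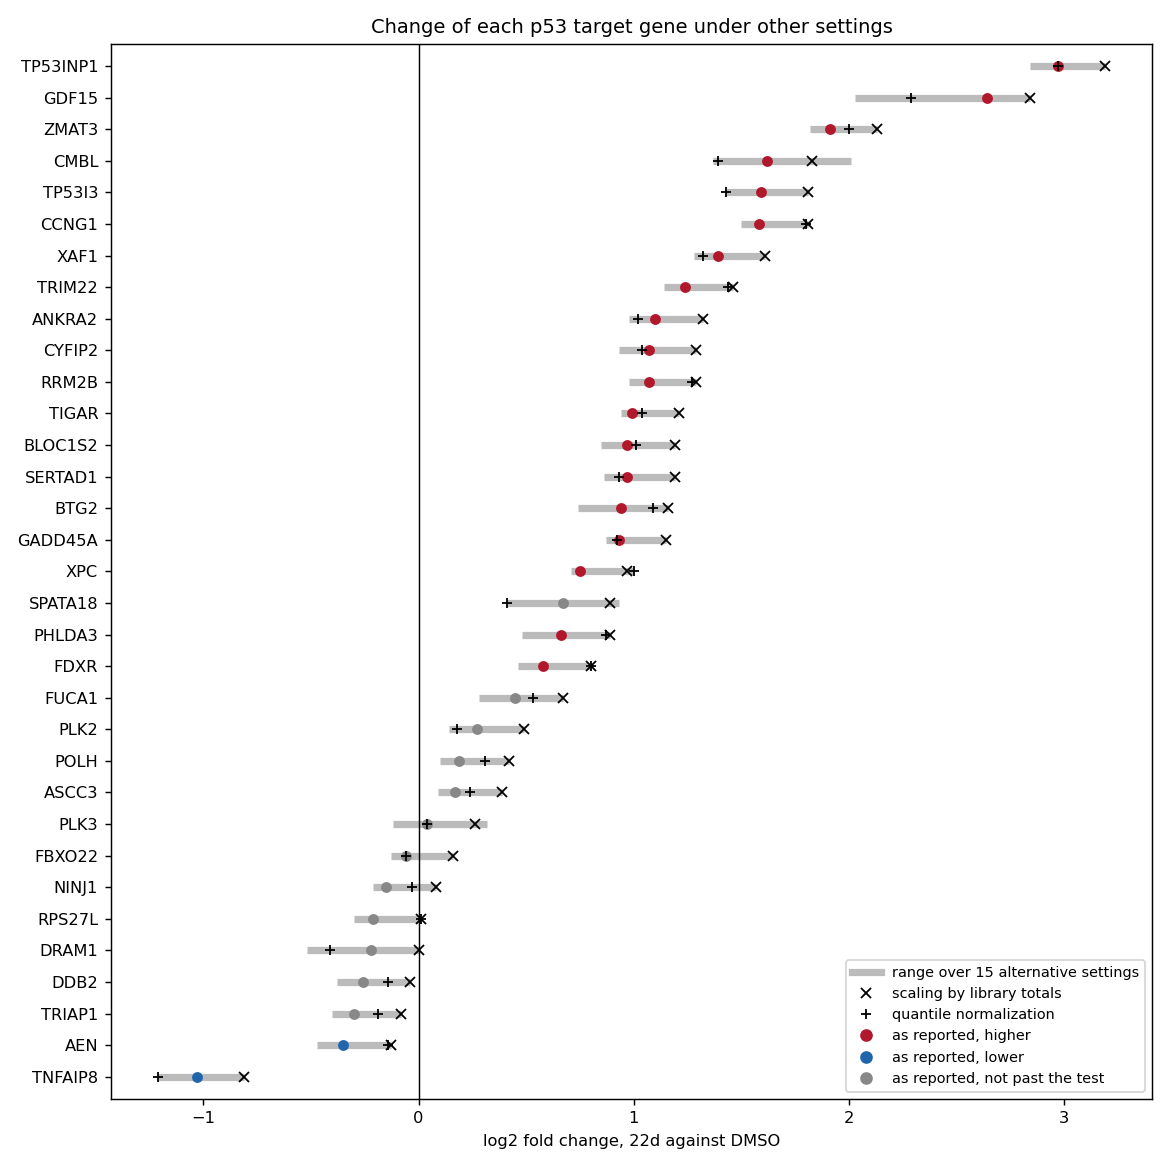
Log2 fold change of each tested member as reported (coloured points, by call) and its range over 15 alternative settings (grey bars), with crosses for scaling by library totals and plus signs for quantile normalization. Genes are ordered by log2 fold change; the members that rose stay right of 0 throughout, and AEN and RPS27L lie near 0 under both of those scalings.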

How the data were processed

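RNA from 6 libraries of MV4-11 cells was compared, 3 with DMSO and 3 with 22d. Per the submitters' processing notes, STAR and HTSeq were used on build hg38, besides cutadapt, FastQC and DESeq2; versions, annotation release, filters and the strand setting are not given in the sources used here. Per the file headers, each library has a column of normalized signal in the deposited table, next to a mean signal. The authors' own log2 fold change, its standard error, a test score, a p-value and an adjusted p-value follow in that table, per the file headers. A column's arm and number gave its library. After multiplication by a size factor for each library, 100% of the signal values were whole reads within 0.001, so reads were recovered.

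The test was limma-trend on log2(value + 1), no block, for the 13297 genes whose mean reached 10 normalized counts, with Benjamini-Hochberg adjustment over all of them and calls at an adjusted p under 0.05. Fold changes from limma use the log2(value + 1) scale, which understates the change of low genes. Intervals are limma 95% intervals, not adjusted for the number of genes. The script was tested on simulated data. Alternatives were pseudocounts of 0.5 and 5, no filter or a mean of 50, quantile normalization, library totals, edgeR's quasi-likelihood test and DESeq2 on the recovered reads, a replicate block, and each library left out in turn. On the recovered reads, edgeR called 3961 genes higher and 3762 lower, and DESeq2 3715 and 3822. Gene places and overlaps came from GENCODE on GRCh38 and promoters from RefSeq on GRCh38.p14. All 34 members were named; of 2 lists of other pathway genes, MDM2, MDM4, PPM1D, CDKN1A and HDAC8 were named, with the 2 largest rises and 2 largest falls in each list. From the lists, 2 genes are not reported here. The members and lists were chosen with earlier results of these data known. By GENCODE, TIGAR, XAF1, PHLDA3, FBXO22 and TRIM22 share 1711, 2535, 598, 1917 and 642 exonic bases with other genes. XPC shares 1140 with AC093495.1, and BLOC1S2, CCNG1, FUCA1, POLH and TRIAP1 have processed pseudogenes, so reads of all these genes may be split. Read totals limit precision for the low genes GDF15 and KITLG. R 4.3.3, limma 3.58.1, edgeR 4.0.16, DESeq2 1.42.0, Python 3.11.15 and matplotlib 3.10.9 were used.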

Additional observations from a re-analysis of the deposited data

How the results depend on the processing

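Members called higher numbered 18 to 24 over the 15 alternatives, against 19 as reported. Members called lower numbered 1 with quantile normalization and with library totals, and 1 to 3 with a library left out: 1 without DMSO replicate 1, DMSO replicate 2 or 22d replicate 1, and 3 without DMSO replicate 3 or 22d replicate 2. The members' median log2 fold change was 0.92 with quantile normalization and 0.97 with library totals, and 0.71 to 0.85 with a library left out. Directions turned for PLK3 with a library left out (-0.12 to 0.32), for RPS27L with quantile normalization (0.01) and library totals (0.01), for NINJ1 (0.08) and FBXO22 (0.16) with library totals, and for HDAC8 with quantile normalization (-0.01) and with a library left out (-0.02 to 0.10); none of these values but that of PLK3 without 22d replicate 1 passed the test. The cause was not tested. With the replicate block, 20 members were higher and 2 lower, FUCA1 passed and MDM4 did not (adjusted p = 0.074). Same-numbered libraries did not deviate together (r of -0.025, -0.018 and -0.10). With 3 libraries a group this is a weak check, and it cannot settle whether libraries were paired by number. Depth limits what can be said of GDF15 and KITLG, with 3 to 6 and 1 to 4 reads in the DMSO libraries.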
